A study of Mus musculus with 6 samples.

Results

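The genes described here encode zinc finger proteins whose symbols begin with Zkscan, Zscan or Zfp followed by a number. They were taken from the probe sets of the array table that carry exactly 1 gene symbol. Of 388 such probe sets, for 370 genes, each gene was represented by its brightest probe set (highest mean of 6 arrays), and genes were selected on level, each being kept when its log2 value was at least 6.5, the background level of the study's methods, in all 3 arrays of a genotype. That left 251 genes, of which 246 met the level in all 6 arrays and 5 in all arrays of 1 genotype only. Of the 119 genes left out, 104 lay below 6.5 in every array. Other genes said below to be at the same level met this same rule and were not matched to the 251 in level. Zkscan17 was chosen by its change between genotypes, which was already known, so its values are given as a description without a test.

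RNA came from CD4+ dendritic cells (DC), antigen-presenting cells of the spleen, sorted from 3 Runx3-/- mice and 3 WT (Runx3 +/+) mice, all male and 6 weeks old. Each Runx3-/- mouse was paired with a WT littermate, and replicate numbers 1 to 3 name the litter. The comparison asks which genes respond to the loss of Runx3, a RUNX family transcription factor. The deletion is germline, so every cell of the Runx3-/- mice carried it, and the mouse strain is not given in the labels. The sort used CD11c, MHCII, CD4 and CD8, and the labels name an Esam population without stating how Esam entered the gate. In such bulk samples, fewer cells of a type and less RNA per cell cannot be told apart.

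Most of these proteins bind DNA through tandem C2H2 zinc fingers, each finger reading a few bases. Many also carry a KRAB domain, which recruits the co-repressor Trim28 and through it the H3K9 methyltransferase Setdb1 to silence chromatin, with retroelements and imprinted loci among the known targets. The SCAN domain, which gives the Zscan and Zkscan genes their names, mediates pairing between family members. Zkscan17, also known as Nizp1, was described as a repressor that binds the H3K36 methyltransferase Nsd1. A few genes with Zfp symbols, such as Zfp36 and its relatives, instead carry CCCH fingers and bind AU-rich mRNA.

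Promoter windows of 4 genes are shown, from 250 bases before to 50 bases after an annotated start (RefSeq, GRCm38.p6, a later build than the mm9 named in the processing notes). They belong to Zkscan17, to Zscan2, which had the next largest difference among the Zkscan and Zscan genes, to Zkscan6, which holds a match to the RUNX core motif, and to Zfp36l1, which had the largest difference in the opposite direction. The motif searched was TGTGGT on both strands, and capitals mark a match. The windows lie at chr11:59506591-59506890 (minus strand), chr7:80860681-80860980 (plus), chr11:65807715-65808014 (plus) and chr12:80112964-80113263 (minus).
Zkscan17: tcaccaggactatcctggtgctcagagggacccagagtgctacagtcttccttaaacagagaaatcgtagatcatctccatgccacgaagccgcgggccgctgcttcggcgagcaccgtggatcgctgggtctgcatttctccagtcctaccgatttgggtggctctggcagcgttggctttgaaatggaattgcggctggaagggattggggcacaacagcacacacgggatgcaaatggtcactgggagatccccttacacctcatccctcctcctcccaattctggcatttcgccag
Zscan2: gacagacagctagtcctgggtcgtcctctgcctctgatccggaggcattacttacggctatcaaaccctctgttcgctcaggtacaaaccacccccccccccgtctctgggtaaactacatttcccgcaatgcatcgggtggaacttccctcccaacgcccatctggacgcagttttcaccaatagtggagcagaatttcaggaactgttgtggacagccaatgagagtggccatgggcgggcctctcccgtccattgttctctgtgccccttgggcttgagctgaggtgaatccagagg
Zkscan6: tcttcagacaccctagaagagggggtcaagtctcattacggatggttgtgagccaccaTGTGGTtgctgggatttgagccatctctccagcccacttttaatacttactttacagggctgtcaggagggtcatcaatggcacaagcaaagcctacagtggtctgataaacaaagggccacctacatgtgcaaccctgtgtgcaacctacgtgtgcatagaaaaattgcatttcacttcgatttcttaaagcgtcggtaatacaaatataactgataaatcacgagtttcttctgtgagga
Zfp36l1: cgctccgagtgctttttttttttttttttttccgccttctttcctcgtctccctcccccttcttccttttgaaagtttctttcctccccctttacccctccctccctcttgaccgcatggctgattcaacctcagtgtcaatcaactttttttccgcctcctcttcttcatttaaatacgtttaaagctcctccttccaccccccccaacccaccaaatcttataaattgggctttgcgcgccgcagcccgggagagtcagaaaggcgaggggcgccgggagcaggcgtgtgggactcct

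The Zkscan6 window held 1 match, 192 bases before the start on the plus strand, and the other annotated start of Zkscan6 had none. The windows of Zkscan17, Zscan2 and Zfp36l1 held none. Of 258 windows found for 207 of the 251 genes, 16.3% held the motif, against 12.6% of 9570 windows of other genes that met the same level and 16.8% of all 32851 windows. Among the genes that were lower in Runx3-/- DC without overlap between genotypes, 7 of 54 windows (13%) held it. The zinc finger windows contained a median of 15 CpG, against 21 in windows of other genes at the same level. These are descriptions of letters in a window, and they say nothing about whether a factor binds there. Zfp831, Zfp599, Zfp646 and Zfp369 had no window in the table.

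The arrays were alike in level, with median log2 values of 6.57 to 6.601 in Runx3-/- and 6.59 to 6.65 in WT DC. Runx3 itself read 9.16, 9.30 and 9.16 in the Runx3-/- arrays, against 11.24, 11.22 and 11.11 in WT (limma, adjusted p = 0.0027, and 0.0609 with the litter as a block). All 10 CD4+ DC markers lay at or above 6.5 in every array, and 7 of them had negative changes. Without overlap 5 were lower and 2 higher, against 19.1% and 9.64% of the 9513 genes that met the same level as the zinc finger genes. Only Irf4, with a log2 change of -0.62, passed the adjusted threshold (limma, adjusted p = 0.0434, and 0.102 with the litter as a block). Their summed level, on the log2 scale, overlapped, at 15.41 to 15.50 in Runx3-/- against 15.48 to 15.56 in WT. All 4 NK cell markers, all 3 erythroid markers, 4 of 5 neutrophil markers and 5 of 6 T cell markers (Cd3d, Cd3e and Cd3g among them) lay below it in every array, whereas the T cell marker Cd5 did not. Of 7 B cell markers, Pax5 and Ebf1 lay below it in every array and Cd79b, Ms4a1, Fcer2a and Cr2 at or above it in every array. Genes listed as markers of some other cells also moved with the genotype. Whether the signal came from such cells or from the DC themselves was not tested. All 11 red pulp macrophage markers had positive changes, 8 of them past the adjusted threshold (0 with the litter as a block, where their adjusted p ran from 0.0744 to 0.104), and their summed level, on the log2 scale, was 13.83 to 14.10 in Runx3-/- against 12.33 to 12.89 in WT. The summed level of 5 CD8+ DC markers was 10.34 to 10.80 in Runx3-/- against 9.77 to 9.83 in WT. Of these, Cadm1 and Xcr1 were higher without overlap, whereas Clec9a and Cd8a overlapped. Cd8a reached 6.5 in 1 array only, and Itgae in none. The summed level of 4 plasmacytoid DC markers was 10.44 to 11.81 against 10.28 to 10.39, and that of 4 monocyte markers 12.30 to 12.42 against 11.53 to 11.99. The monocyte marker F13a1 lay below 6.5 in every array. All 4 plasmacytoid DC markers were highest in Runx3-/- array 3. There Siglech read 10.18, against 7.46 and 8.18 in Runx3-/- arrays 1 and 2 and 7.40 to 7.45 in WT. The summed level of the 7 B cell markers overlapped, at 11.06 to 11.20 in Runx3-/- against 10.76 to 11.16 in WT. Among them Cd79b and Fcer2a were higher, each with a log2 change of 0.58, and Cr2 lower, with one of -0.77, all without overlap (limma, adjusted p = 0.0772, 0.221 and 0.114). The part of these shifts in the zinc finger values below was not tested.

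The decrease for which Zkscan17 was chosen came from 1 of its 2 probe sets. Probe set 10386414 was used because it had the higher mean over 6 arrays, which it owed to WT. In WT it averaged 9.09, against 8.15 for the other probe set, and in Runx3-/- DC 7.91, against 7.99. The rule could thus favour the probe set with the larger decrease. Probe set 10386414 read 7.89, 7.93 and 7.92 in Runx3-/- DC of litters 1, 2 and 3, against 9.02, 9.14 and 9.12 in WT. The genotypes were separated by far more than their spread, with means of 7.91 ± 0.02 in Runx3-/- and 9.09 ± 0.07 in WT (SD, n = 3 each). On the log2 scale it changed by -1.18 ± 0.07 (SE), which left 44.1% of the WT level, and the differences within litters were -1.13, -1.22 and -1.20. By these measured values it ranked 26 among the decreases of 9922 tested genes. The order of Zkscan17 and Zfp57 (-1.13) is not settled, since Zfp57 lay below the background level in all Runx3-/- arrays and its decrease has only a lower bound.

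A different probe set for Zkscan17 gave another size of change. Probe set 10386402 read 8.09, 7.99 and 7.88 in Runx3-/- DC, against 8.11, 8.22 and 8.13 in WT. All Runx3-/- values again lay below all WT values, but by little, and in litter 1 the littermates were nearly level. Here the change was -0.17 ± 0.08 (SE), or 89.1% of the WT level, and the differences within litters were -0.03, -0.23 and -0.25. The changes of the probe sets differed by 1.01 on the log2 scale. According to the platform annotation, probe set 10386402 matches 7 transcript records, 4 of them RefSeq mRNAs, whereas 10386414 matches 1 cDNA clone and no RefSeq mRNA. Of the 251 genes, 245 were represented by a probe set that lists a RefSeq mRNA, and Zkscan17 was the only one of the other 6 with a further probe set that lists one. Whether probe set 10386414 reports the Zkscan17 mRNA, a variant of it or a separate transcript was not tested.

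**Figure D1:**
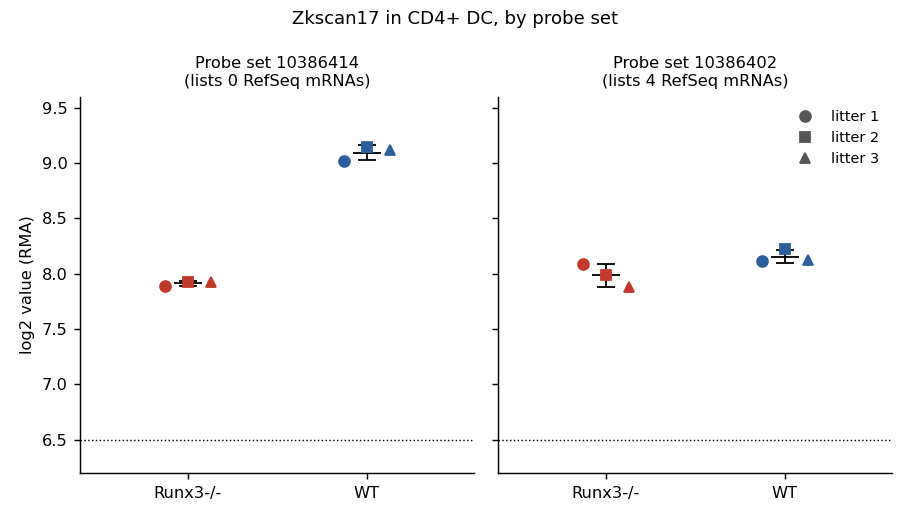
Log2 values (RMA) of the Zkscan17 probe sets in each array, Runx3-/- left of WT, with bars for the mean and SD (n = 3 each), symbols for the litter and a dotted line at 6.5. Probe set 10386414 averaged 7.91 in Runx3-/- and 9.09 in WT DC, and probe set 10386402 averaged 7.99 in Runx3-/- and 8.15 in WT DC.

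Genes beside Zkscan17 on the chromosome, taken in RefSeq order, showed no decrease of that size. Nlrp3, the sensor of the inflammasome and the next gene on one side, read 9.62, 9.72 and 9.75 in Runx3-/- DC, against 9.87, 9.89 and 9.98 in WT. Its values did not overlap, with a log2 change of -0.22 (limma, adjusted p = 0.233). On the other side, Jmjd4 had a log2 change of -0.07 and Snap47 of 0.23, and none of the 8 measured neighbours passed the adjusted threshold. The 5 genes whose values were most like those of Zkscan17 over the 6 arrays, by Pearson correlation, were Simc1 and Plcb2 (0.997 each), Fasn and Runx3 (0.995 each) and Smad1 (0.993). Each of them was lower in all Runx3-/- arrays, and with 3 arrays per genotype these values describe little beyond the step between genotypes.

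None of the zinc finger genes counted here passed the adjusted threshold of 0.05. Zkscan17 and the 5 genes kept through 1 genotype only were left out, since their choice used the difference between genotypes or could build one in. With genotype as the only term, 0 of the other 245 genes passed (limma), against 1.56% of all 19149 tested probe sets (0.7% lower and 0.856% higher) and 2.32% of the 9513 genes that met the same level. At an unadjusted p of at most 0.05, 35 were lower and 1 higher, against 10.3% and 5.59% of tested probe sets and 12% and 7.34% of genes at the same level. With the litter as a block the adjusted count was 0, as it was for the whole table, and the unadjusted counts were 37 and 1. Leaving out 1 array gave 20 to 46 lower and 1 to 3 higher at that unadjusted p, and 46 was reached without Runx3-/- array 2. In that setting Zfp831 passed the adjusted threshold (adjusted p = 0.0493, from a range of 0.0493 to 0.401 over all alternatives). At the study's own thresholds, an unadjusted p of at most 0.05 and a change of 1.5-fold or more, 1 of the 245 genes (Zfp831) was lower and 0 were higher, against 1.94% and 2.01% of tested probe sets. Without WT array 2 or without Runx3-/- array 2 the lower count was 2, with Zfp599 added.

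As a group, the zinc finger genes had small negative changes more often than other genes did. In Runx3-/- DC 197 of the 251 genes (78.5%) had the lower mean, against 58.7% of the 9262 other genes at the same level. The 251 include Zkscan17, which was chosen by its change. They also include Zfp57, Zfp629 and Zfp618, kept through WT arrays alone, and Zfp830 and Zfp658, kept through Runx3-/- arrays alone. The selection of these genes could build in their direction. Among the 246 genes at or above 6.5 in all 6 arrays, Zkscan17 included, 194 (78.9%) had the lower mean. The median log2 change of the 251 genes was -0.10 (also -0.10 for the 246), against -0.03 for the other genes. After each array was centred on its median, the medians were -0.06 and 0.01 and the shares with the lower mean 64.1% and 48.1%. Centring moves every gene by the same amount, so it leaves the gap between the medians as it was. Quantile normalization gave medians of -0.06 and -0.0025. The other genes were brighter, with a median level of 9.23 against 8.45 for the zinc finger genes. In the deposited values, shares with the lower mean were also taken within bands of mean level. At 6 to 7.5, 7.5 to 8.5, 8.5 to 9.5 and 9.5 to 11 they were 80.4%, 76%, 84.1% and 80%. Those of other genes were 56%, 62.6%, 61.8% and 56.6%. At 11 or more the shares were 28.6% (2 of 7 zinc finger genes) and 55.2%. Most changes were small, with 191 genes within 0.2 of 0, 53 lowered by more and 7 raised by more, and the largest increase was 0.39. The genes are not independent of each other, and this comparison of medians carries no test.

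**Figure D2:**
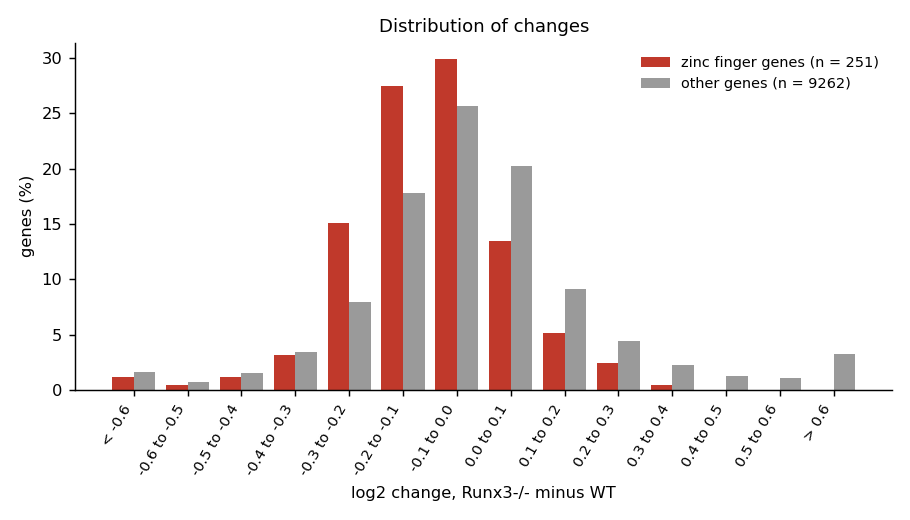
Share of genes (%) in bins of log2 change, Runx3-/- minus WT, for the 251 zinc finger genes (red) and 9262 other genes (grey). The red bars include Zkscan17, chosen by its change, and the genes kept through WT or Runx3-/- arrays alone. The other genes met the same level rule and were not matched in level. The bin from -0.3 to -0.2 held 15.1% of the zinc finger genes and 7.92% of the others, whereas the bin from 0.0 to 0.1 held 13.5% and 20.2%, and no zinc finger gene lay above 0.4.

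Genotypes did not overlap for 61 genes. All 3 Runx3-/- values lay below all WT values for 57 genes (22.7%), against 14.9% of tested probe sets and 19.1% of the 9513 genes at the same level. All Runx3-/- values lay above all WT values for 4 genes (1.59%), Zfp36l1, Zfp982, Zfp369 and Zfp830, against 7.48% and 9.64%. The lower count includes Zkscan17, which was chosen by its change, and Zfp57, which was kept through its WT arrays alone. Zfp830 was kept through its Runx3-/- arrays alone, so the selection of these genes could build in their direction. Among the 246 genes present in all 6 arrays, 55 (22.4%, Zkscan17 included) were lower without overlap and 3 (1.22%) higher. The share lower was near that of all genes at this level and the share higher was below it. The split moved with the scaling, to 38 lower and 13 higher after median centring (13.5% and 13.2% of other genes) and to 38 lower and 10 higher after quantile normalization (15% and 11.8%). Single arrays also moved it, since 5 arrays overlap less easily than 6. Without Runx3-/- array 2 the counts were 110 lower and 7 higher, and without Runx3-/- array 3 they were 69 and 18. The higher count was 10 without Runx3-/- array 1, 9 without WT array 1 and 11 without WT array 3.

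**Figure D3:**
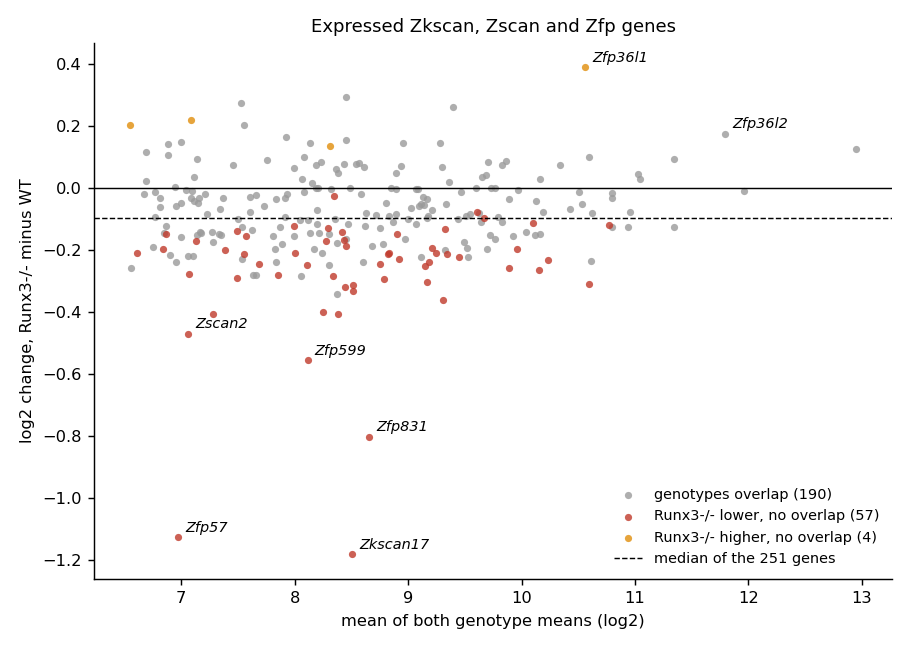
Log2 change (Runx3-/- minus WT) of the 251 zinc finger genes against the mean of the genotype means (log2). Red points are the 57 genes lower in Runx3-/- without overlap, orange points the 4 higher without overlap, grey points the 190 with overlap, and the dashed line is the median of -0.10; Zkscan17 at -1.18 and Zfp57 at -1.13 lie lowest.

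The negative shift was not equal in the 3 litters. The median difference between littermates over the 251 genes was -0.12 in litter 1, -0.01 in litter 2 and -0.14 in litter 3, against -0.04, -0.01 and -0.06 for the other genes. After median centring the zinc finger medians were -0.06, -0.02 and -0.07, and those of the other genes 0.03, -0.02 and 0.01. The mean of the 251 genes was 8.49, 8.58 and 8.49 in the Runx3-/- arrays, against 8.63, 8.60 and 8.64 in WT. Runx3-/- array 2 thus stood close to the WT arrays, and for 79 genes the lowest of the 6 values fell in Runx3-/- array 1, for 18 in array 2 and for 88 in array 3. The Runx3-/- value was below that of the WT littermate in all 3 litters for 95 genes (37.8%, against 32.4% of other genes) and above it in all 3 for 21 (8.37%, against 19.3%).

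**Figure D4:**
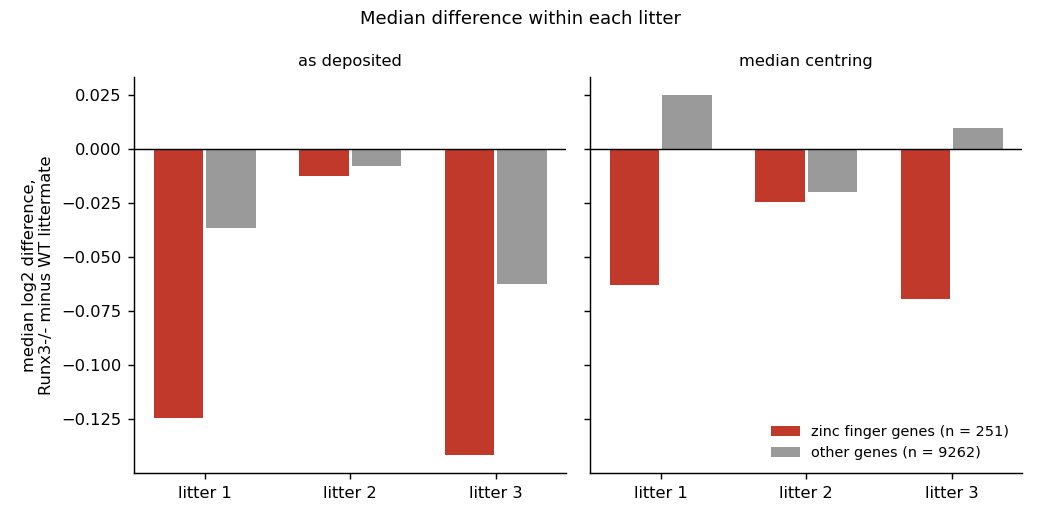
Median log2 difference between the Runx3-/- and the WT littermate in each litter, for the 251 zinc finger genes (red) and 9262 other genes (grey). The other genes met the same level rule and were not matched in level. The deposited values are on the left, and values with each array centred on its median on the right. In the deposited values the zinc finger medians were -0.12, -0.01 and -0.14, and those of the other genes -0.04, -0.01 and -0.06.

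Among genes with SCAN family names, 13 of 15 had the lower mean in Runx3-/- DC (12 after either scaling), with a median log2 change of -0.13. For 7 of the 15 (46.7%) all Runx3-/- values lay below all WT values (6 after median centring). The share was 14.9% of tested probe sets and 19.1% of genes at the same level. These counts include Zkscan17, which was chosen by its change. Zscan2 read 6.66, 6.93 and 6.88 in Runx3-/- DC, against 7.19, 7.18 and 7.504 in WT. Its log2 change was -0.47 ± 0.12 (SE; limma, adjusted p = 0.145). Both genotypes lay little above the background level. Zkscan6 read 7.91, 8.01 and 8.03 in Runx3-/- DC, against 8.25, 8.24 and 8.21 in WT. The WT arrays were tightly grouped and the log2 change was -0.25 ± 0.07 (SE; limma, adjusted p = 0.152). Zscan29 had a log2 change of -0.23 (limma, adjusted p = 0.167) and was lower in all 3 litters. Zkscan3, Zscan20 and Zscan25 had changes between -0.06 and -0.03, and Zscan21 and Zscan30 had positive changes of 0.02 and 0.08 with overlap between genotypes.

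Among the other genes present in all arrays, the largest differences were lower in Runx3-/- DC, though none passed the adjusted threshold. Zfp831 read 8.08, 8.70 and 7.98 in Runx3-/- DC, against 9.28, 8.95 and 8.94 in WT. Litter 2 differed least, by -0.25, where litters 1 and 3 differed by -1.20 and -0.96. The log2 change was -0.80 ± 0.21 (SE; limma, adjusted p = 0.144), or 57.4% of the WT level. Zfp599 read 7.73, 8.03 and 7.75 in Runx3-/- DC, against 8.58, 8.22 and 8.37 in WT. Litter 2 again differed least, and the log2 change was -0.55 ± 0.13 (SE; limma, adjusted p = 0.107). Zfp287, whose product carries both a SCAN and a KRAB domain, read 7.12, 7.02 and 7.08 in Runx3-/- DC, against 7.59, 7.48 and 7.37 in WT. Replicates were close within each genotype, and the log2 change of -0.41 ± 0.08 (SE) had the smallest adjusted p of the 245 genes (limma, 0.0799, and 0.131 with the litter as a block).

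Zfp931, Zfp646 and Zfp317 had log2 changes of -0.41, -0.40 and -0.36, also without overlap (limma, adjusted p = 0.169, 0.177 and 0.221). In Zfp931 the Runx3-/- arrays were closely grouped, at 8.18, 8.21 and 8.14, and WT array 2 at 8.34 lay nearest to them, against 8.71 and 8.70 in WT arrays 1 and 3. In Zfp317 the WT arrays were closely grouped and Runx3-/- array 3 lay lowest.

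**Figure D5:**
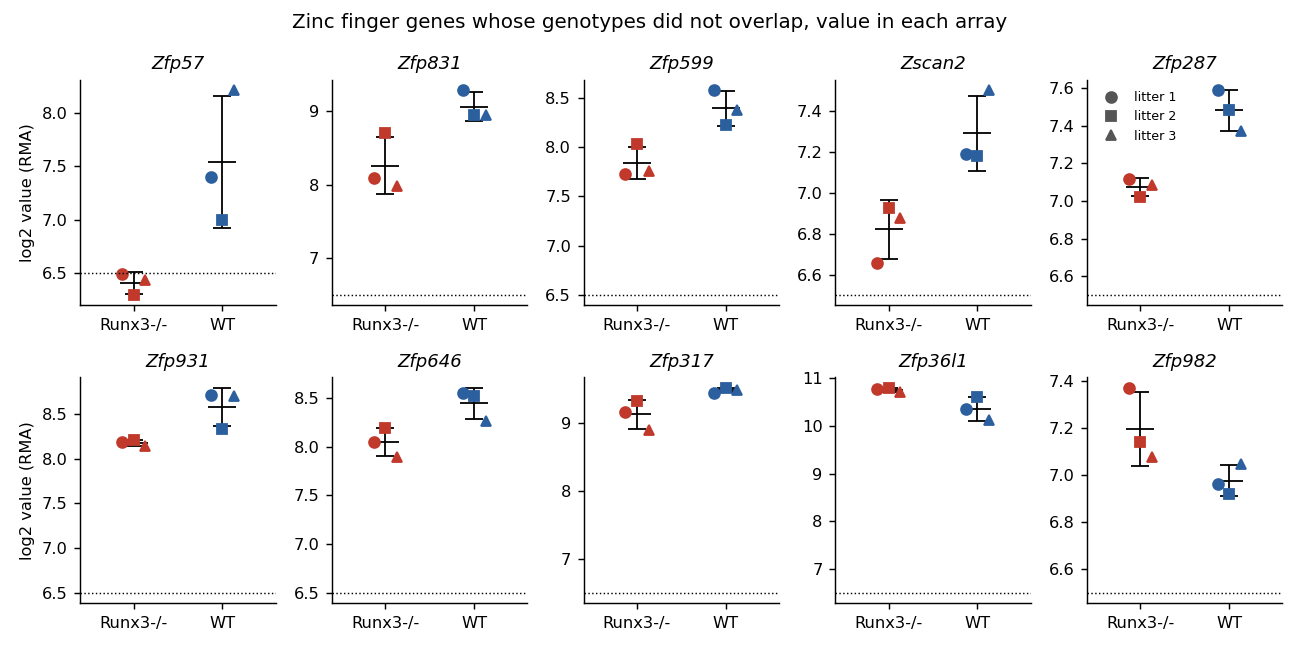
Log2 values (RMA) of 10 zinc finger genes in each array, Runx3-/- left of WT, with bars for the mean and SD (n = 3 each), symbols for the litter and a dotted line at 6.5; the vertical scales differ. In the first 8 panels all Runx3-/- values lie below all WT values, and in Zfp36l1 and Zfp982 they lie above. Apart from Zfp57, which was kept through its WT arrays alone, the genes were picked from those without overlap, so this separation follows from the choice.

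Of the 11 RNA-linked genes, 5 had negative changes, and the median was 0.03 (1 negative after median centring, 2 after quantile normalization). The difference from the rest of the family was not tested, and 4 of the 11 (Zfp36, Zfp36l2, Zfp106 and Zfp207) are among the 7 zinc finger genes with mean levels of 11 or more, of which 2 had negative changes. Zfp36l1, which promotes the decay of AU-rich mRNA, had the largest increase of the family. It read 10.77, 10.80 and 10.70 in Runx3-/- DC, against 10.36, 10.62 and 10.12 in WT. WT varied more than Runx3-/-, and the log2 change was 0.39 ± 0.13 (SE; limma, adjusted p = 0.232). Its relative Zfp36l2 read 12.03, 12.05 and 11.56 in Runx3-/- DC, against 11.88, 11.91 and 11.31 in WT. Litter 3 was low in both genotypes and the values overlapped, with a log2 change of 0.18 ± 0.21 (SE) that turned to -0.021 without WT array 3. Zfp36 itself had a log2 change of 0.09 ± 0.28 (SE). Zfp598, whose human counterpart marks collided ribosomes, and Zfp622, a factor of large ribosomal subunit assembly, had log2 changes of -0.20 and 0.08, with overlap (-0.09 and 0.0095 without Runx3-/- array 3).

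Further increases without overlap were small. Zfp982 read 7.37, 7.14 and 7.07 in Runx3-/- DC, against 6.96, 6.92 and 7.05 in WT. In litter 3 the littermates were nearly level, and the log2 change was 0.22 ± 0.10 (SE; limma, adjusted p = 0.350). Zfp369 had a log2 change of 0.14 (limma, adjusted p = 0.433).

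Of the genes linked to imprint or retroelement silencing, 5 were present and all had negative changes (4 after either scaling), with a median of -0.13. Zfp57, which maintains methylation at imprinted loci, read 6.499, 6.30 and 6.43 in Runx3-/- DC, all under the background level of 6.5, against 7.398, 7.002 and 8.21 in WT. Its WT values were widely spread, and the Runx3-/- level was at least 2.05-fold lower when set at the background level. Zfp57 was kept through its WT arrays alone, so a difference was built into its selection and no test is given. Zfp445, which also acts at imprints, had a log2 change of -0.07, and Zfp809, which silences murine leukaemia proviruses, one of -0.13, both with overlap. Zfp961 had a log2 change of -0.15 with overlap. Imprinted genes gave little to set beside them, since only 6 of 34 listed met the level. Of these 5 had negative changes (3 after either scaling) with a median of -0.06, and none passed the adjusted threshold.

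The genes linked to transcription and chromatin, 16 in number, had a median of -0.03 that became 0.01 after median centring. Of the 16, 3 were lower and 0 higher without overlap, where 19.1% and 9.64% of all genes at the same level were. The share lower was thus near that of all genes. The 3 were Zfp652, a repressor, with a log2 change of -0.26, Zfp746 (also called Paris, a repressor of Ppargc1a) with -0.21 and Zfp277 with -0.20 (limma, adjusted p = 0.236, 0.271 and 0.290). Zfp516, an activator of Ucp1 in brown fat, had a log2 change of -0.19 with overlap. Of the lymphocyte-linked genes beside Zfp831, Zfp335, needed for T cell maturation, and Zfp318, which controls IgD splicing in B cells, had log2 changes of -0.09 and -0.08 with overlap.

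The other genes that met the level in 1 genotype only were Zfp629 and Zfp618, through WT, and Zfp830 and Zfp658, through Runx3-/-. Their log2 changes were -0.26, -0.21, 0.21 and 0.12, and all their values lay between 6.17 and 6.83. The change of Zfp629 ran from -0.39 without Runx3-/- array 2 to -0.13 without Runx3-/- array 3, and that of Zfp658 was 0.039 without WT array 1. At the edge of the level threshold, Zscan21 at 6.59 to 6.84 in Runx3-/- and 6.56 to 6.87 in WT was inside, whereas Zfp444 at 6.31 to 6.56 in Runx3-/- and 6.49 to 6.56 in WT was outside. Zfp629 was kept with values of 6.17 to 6.69 in Runx3-/- and 6.62 to 6.77 in WT, and Zfp560 was left out with 6.28 to 6.497 in Runx3-/- and 6.48 to 6.72 in WT. Among the 246 genes present in all 6 arrays, 194 had the lower mean in Runx3-/- DC, 55 were lower without overlap and 3 higher.

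Genes of partner complexes were measured beside the zinc finger genes. Of 26 KRAB co-repressor genes, 13 had negative changes (10 after median centring) and the median was -0.0039. Of the 26, 1 passed the adjusted threshold (limma), and 5 were lower and 1 higher without overlap. Over the 9513 genes at the same level the shares were 2.32%, 19.1% and 9.64%, so these counts say little about the co-repressors as a set. Trim28, the platform of the complex, had a log2 change of -0.05 and Setdb1 one of -0.09. Morc2a, an ATPase that works with the HUSH silencing complex, read 9.45, 9.58 and 9.41 in Runx3-/- DC, against 9.95, 9.93 and 9.91 in WT, and was the only one past the adjusted threshold. Its log2 change was -0.45 ± 0.07 (SE; limma, adjusted p = 0.0444, and 0.112 with the litter as a block). Mta2 and Gatad2a, subunits of the NuRD complex, had log2 changes of -0.34 and -0.24 (limma, adjusted p = 0.161 and 0.204), whereas Chd4, the ATPase of that complex, had one of 0.20 without overlap (limma, adjusted p = 0.350). All 6 measured H3K36 methyltransferases and readers had negative changes (4 after median centring, 5 after quantile normalization), with a median of -0.13. Of the 6, 2 were lower without overlap, where 19.1% of all genes at the same level were. None of them passed the adjusted threshold. Among them Nsd1, the partner of Zkscan17, had a log2 change of -0.02 with overlap, and Smyd2 the largest, of -0.58 (limma, adjusted p = 0.228).

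Many of the genes lie in clusters. In RefSeq order, with 250 genes placed, 99 stood next to another of the 251, in 36 runs. The longest run held 7 genes (Zfp677, Zfp54, Zfp51, Zfp53, Zfp52, Zfp948 and Zfp983), all with negative changes between -0.18 and -0.0002. Of 63 neighbouring pairs, 45 (71.4%) had changes of the same sign, against 66.1% of all pairs of the 251 genes, and their changes differed by a median of 0.11, against 0.13 over all pairs. Neighbours in such clusters are often similar in sequence, and whether their probes share signal was not tested. The run of Zfp809, Zfp599 and Zfp810 spanned changes from -0.55 to -0.13.

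Beside the other families of zinc finger genes at the same level, 29 of 34 Zbtb genes had negative changes (26 after either scaling) with a median of -0.13, and 7 of 11 Klf genes with a median of -0.10. Of 15 Zc3h genes, CCCH proteins that bind RNA, 10 had negative changes with a median of -0.05, and the median was -0.01 after median centring and 0.01 after quantile normalization. Differences between the families were not tested.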

How the data were processed

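RNA of sorted splenic CD4+ DC from 6 separate mice (3 Runx3-/-, 3 WT) was hybridised to Affymetrix arrays. The authors imported the raw files into Partek and summarised probe sets by RMA with GC correction, and the log2 values were deposited in that form. The processing notes name mm9 without software versions. RMA equalises the arrays, so a shift common to most genes is reduced, and fold changes of dim probe sets are compressed. An exon array is named in the methods, but the probe set identifiers belong to a gene-level array.

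The table held 35399 probe sets, of which 21789 had 1 gene symbol, 1621 several and 11989 none in the platform annotation. The 19149 probe sets with a value of at least 6.5 in at least 1 array were tested in R 4.3.3 with limma 3.58.1 (lmFit, eBayes, two-sided, genotype as the only term), and p-values were adjusted by Benjamini-Hochberg over all of them. The script was tested on simulated data. The labels name the litters, and littermates deviated together from their genotype means (correlations of 0.158, 0.102 and 0.246), so the litter was used as a block in an alternative fit. Other alternatives changed the normalization, centring, filter, test, probe set rule and level threshold and left out each array in turn. With 3 arrays per genotype their number limits the precision. Symbols, gene order and promoter windows were taken from RefSeq GRCm38.p6, and no mm9 coordinates are given. Windows of named genes on 1 chromosome were left out, and 24 of 30 named zinc finger genes had a window among those kept.

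The members and gene lists were chosen with earlier results of these data known. Named were Zkscan17, genes past the adjusted threshold, up to 8 of the largest decreases and increases without overlap among genes present in all arrays, those present in 1 genotype only, up to 4 of each list by smallest p, those at the edge of the level threshold, and Zfp57 and Zfp831, which the study lists. Zkscan3, Zscan20, Zscan25, Zscan30, Zfp36, Trim28, Chd4, Nsd1 and the genes in chromosomal runs were named after their values were seen. Of the 251 genes, 13 had further probe sets, 2 of these 15 with a change of the other sign, and 1 gene (Zfp788) shared its values with its other probe set.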

Additional observations from a re-analysis of the deposited data

How the results depend on the processing

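Of the 245 genes counted above, 0 passed the adjusted threshold, also with the litter as a replicate block and by the analysis of variance. Without Runx3-/- array 2, 1 (Zfp831) passed. Over all 251 genes the number was 1. That gene was Zkscan17, whose choice used its change, so the number is no test of it. This number was 0 with the litter block, without Zkscan17 or with its other probe set (the settings on Zkscan17 were chosen after seeing the data). It was 0 to 2 with 1 array left out, and 1 in the analysis of variance, trend, filter and scaling alternatives. The Zkscan17 log2 change was -1.18, -1.14 after quantile normalization, -0.67 as the mean of its probe sets, -0.17 from the other probe set, and -1.22 to -1.16 with 1 array left out. Genes higher in Runx3-/- without overlap numbered 4, 10 after quantile normalization, 13 after median centring and 5 to 18 with 1 array left out. Genes lower without overlap ranged from 62 to 110 and genes without overlap in either direction from 72 to 117 when 1 array was left out, which by construction makes overlap less likely. The median change of the 251 genes ran from -0.13 to -0.07 with 1 array left out. Zfp36l2 (0.18) ran from -0.021 without WT replicate 3 to 0.34 without Runx3-/- replicate 3, reversed only in the first. For 29 named genes, 404 of 406 comparisons with an alternative kept direction and side of the threshold, the exceptions being that reversal and Zfp831 without Runx3-/- replicate 2, and the block changed no call beyond those given. The whole table had 298 probe sets past the adjusted threshold, 0 with the litter block (3430 at an unadjusted p of at most 0.05), 6 by the analysis of variance, and 0 to 205 with 1 array left out. With 3 arrays per genotype and differences mostly under 0.2, most single genes lie within the replicate error.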
